A study of Mus musculus with 35 samples.

Results

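The Tbx2 subfamily of T-box transcription factor genes has 4 members in the mouse, arranged as 2 neighbouring pairs: Tbx3 with Tbx5 on chromosome 5, and Tbx2 with Tbx4 on chromosome 11. The 4 genes were taken by name from the 21631 protein-coding genes placed on the autosomes and X, and all 4 were found. They were picked with earlier results on the same peak lists known, among them the H3K27me3 calls of Tbx3 in c34 and GV cells and the H3K4me3 call of Tbx5 in c13. Those values, and the H3K27me3 pattern in general, are therefore given as description and support nothing.

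T-box factors bind DNA through the domain that names them and control the fates of embryonic tissues. Tbx2 and Tbx3 act mainly as repressors, Tbx2 in the chambers and valves of the heart and Tbx3 in the conduction system, the mammary gland and the limb, while Tbx3 is also active in embryonic stem cells. Tbx5 drives forelimb and heart formation, and Tbx4 acts in the hindlimb and the lung. The pairs arose by duplication of an ancestral pair, so each holds a repressor gene next to an activator gene. Polycomb repressive complex 2 places H3K27me3 over such developmental genes where they are silent, H3K4me3 marks active and poised promoters, and H3K36me3 follows transcription through gene bodies.

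The marks were mapped by CATCH-seq, an immunoprecipitation of native chromatin with carrier DNA suited to few cells. All groups were labelled wild type. The cultured groups were d4c7 oogonia-like cells (c7), d4c13 oocyte-like cells (c13) and d4c34 oocyte-like cells (c34), all made from 1 embryonic stem cell line, H18, with the reporters Prdm1-mVenus and Dppa3-ECFP. The groups from animals were E18.5 oocytes carrying these reporters and oocytes of BDF1 mice at the germinal vesicle (GV) stage, whose age the labels do not give. The labels give 2 H3K27me3 libraries at each stage except GV, which has 1. For H3K4me3 they give 4 libraries (c13), 2 (c34), 2 (E18.5) and 1 (GV), and for H3K36me3 2 at each of these 4 stages, with none of either mark at c7. The title names GV oocytes grown from stem cells without ovarian soma, so the question asked of each mark was how the cultured stages compared with oocytes from animals.

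There was 1 peak list per stage and mark, 13 in all, with positions only. Without replicate values no spread could be given, no test was run, and read depth was unknown. A peak missing from a list may lie under its threshold, and a mark in some cells cannot be told apart from a weaker mark in all cells. Peak ends lay on a grid of 10 kb for H3K27me3 and H3K36me3 and of 1 kb for H3K4me3, which sets the finest step of any edge given here. Peaks of at least 1 Mb made up 36.8% of the covered length for H3K27me3 and 79.8% for H3K36me3 in c13. At gene ends, H3K4me3 was found at 4 of 4 germ cell markers in each of its 4 lists, at 4 or 5 of 5 oocyte markers and at 4 or 5 of 5 markers of ovarian somatic cells. H3K27me3 marked 3 (c7), 4 (c13), 0 (c34), 4 (E18.5) and 0 (GV) of the 5 oocyte markers, and 4, 5, 4, 5 and 2 of the 5 somatic markers. Of the 4 germ cell markers it marked 2 (c7), 3 (c13), 1 (c34), 1 (E18.5) and 1 (GV). H3K36me3 marked 3 (c13), 5 (c34), 2 (E18.5) and 5 (GV) of the oocyte markers and 4, 2, 1 and 4 of the somatic ones. Among the germ cell markers it marked 4 (c13), 3 (c34), 1 (E18.5) and 3 (GV). Of all protein-coding genes, the H3K4me3 lists marked 61.3% to 74.8% at gene ends. The H3K27me3 lists marked 28.3% to 60.2% and the H3K36me3 lists 22.9% to 68.2%. With so few markers, these counts say little about cell identity. The part of somatic cells in the results was not tested.

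Coordinates are on GRCm38, counted from 1. Tbx3 (gene 21386) lies at 119670534 to 119684724 and Tbx5 (gene 21388) at 119796514 to 119885220, with 112 kb between them. Tbx2 (gene 21385) lies at 85832615 to 85841948 and Tbx4 (gene 21387) at 85886367 to 85916097, with 44.4 kb between them. Gene bodies measure 14.2 kb for Tbx3, 88.7 kb for Tbx5, 9.33 kb for Tbx2 and 29.7 kb for Tbx4. The interval of a pair below runs from the outer end of its first gene to the outer end of its second, 215 kb for Tbx3 and Tbx5 and 83.5 kb for Tbx2 and Tbx4.

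The RefSeq promoter table (GRCm38.p6) held a start for 1 of the 4 members, an internal start of Tbx4 on the plus strand. The 250 bases before it, chr11:85896515-85896764, lie inside the gene 10.1 kb from its lower end and are shown because no other start of a member was listed. CpG dinucleotides are in capitals.
Tbx4 internal promoter, 5′ to 3′: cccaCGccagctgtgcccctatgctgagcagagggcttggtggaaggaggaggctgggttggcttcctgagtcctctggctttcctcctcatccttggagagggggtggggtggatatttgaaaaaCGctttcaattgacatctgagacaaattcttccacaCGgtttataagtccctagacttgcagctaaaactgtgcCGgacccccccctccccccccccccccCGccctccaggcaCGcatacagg
It held 6 CpG, and 50.4% of 32851 RefSeq promoter windows of the same length held at least as many. The T-box half-site AGGTGTGA, searched on both strands as TCACACCT, was not among its letters and was present in 1.12% of all windows. All 250 bases lay under H3K4me3 peaks in c13, c34, E18.5 and GV cells. H3K27me3 peaks held all 250 bases in c7, c13 and c34 and 0 bases in E18.5 and GV oocytes. H3K36me3 held all of them in c13 and c34 and 0 in E18.5 and GV oocytes.

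H3K27me3 lay over all 4 members in c7, c13 and c34, over Tbx3 and Tbx5 alone at E18.5, and over Tbx5 and Tbx2 alone in GV oocytes. A gene was called marked when a peak came within 1 kb of either of its ends. By this rule the marked share of all protein-coding genes was 46.0% (c7), 60.2% (c13), 43.7% (c34), 39.1% (E18.5) and 28.3% (GV). With 4 members, 4 of 4 in the cultured lists and 2 of 4 in the animal lists are counts too small to set a share against these backgrounds. Tbx5 was the only member marked in all 5 lists, as were 12.1% of protein-coding genes. Without peaks of 1 Mb or more, an alternative chosen after seeing the data, the count was 2 of 4 in c7, 2 in c13 and 0 at E18.5, since single very wide peaks held Tbx3 and Tbx5 there. With a window of 5 kb in place of 1 kb, the E18.5 count was 3 of 4, Tbx4 being added.

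**Figure D1:**
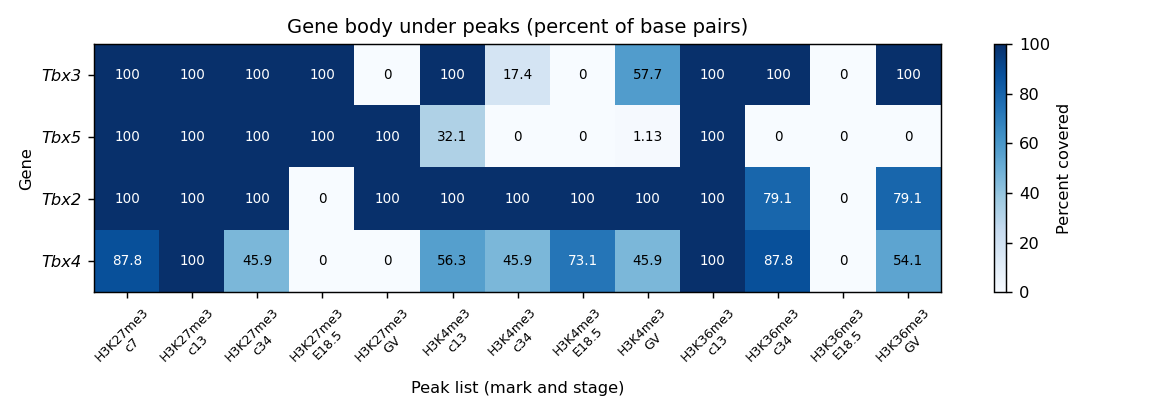
Percent of each gene body (rows) under deposited peaks in each of the 13 lists (columns, mark and stage), with the value in each cell and no error because each list is single. H3K27me3 covers Tbx3 and Tbx5 in full from c7 to E18.5, is at 0 over Tbx2 and Tbx4 at E18.5, and leaves Tbx3 and Tbx4 at 0 in GV oocytes.

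At Tbx3 and Tbx5, H3K27me3 formed domains among the widest of the c7, c13 and E18.5 lists. In c7 the peak over both genes ran from 118150001 to 121130000, 2980 kb, and was the widest of 4529 peaks, the next being 2340 kb. In c13 it ran from 115620001 to 121130000, 5510 kb, again the widest, of 2956 peaks, the next being 5250 kb. At E18.5 it ran from 118150001 to 120120000, 1970 kb, and ranked 14 of 4041 peaks. These peaks held 29, 48 and 6 protein-coding genes in full in c7, c13 and E18.5, the 2 members among them. Peaks of 1 Mb or more touched 3.18% of protein-coding genes in c7, 15.6% in c13 and 4.04% at E18.5.

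The later stages had narrower peaks over this pair. In c34 a peak of 320 kb, from 119650001 to 119970000, held Tbx3 and Tbx5 and no other protein-coding gene. It began 20.5 kb before Tbx3 and ended 84.8 kb after Tbx5. In GV oocytes the peak measured 140 kb, from 119750001 to 119890000, began 46.5 kb before Tbx5 and ended 4.78 kb after it. Tbx3 lay outside, 65.3 kb below that peak and 171 kb above the end of the next lower one. The share of peaks at least as wide was 15.0% in the c34 list and 41.9% in the GV list, so neither peak was among the widest. The interval of the pair was covered at 100% in c7, c13, c34 and E18.5 and at 63.0% in GV oocytes. The corresponding shares of the assembled chromosomes were 33.9% (c7), 40% (c13), 35.2% (c34), 39.3% (E18.5) and 27.4% (GV).

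Several edges fell on the same grid line in different lists. The upper edge at 121130000 was common to c7, c13 and the next E18.5 peak, and the lower edge at 118150001 to c7 and E18.5. On the side of Tbx5 away from Tbx3, c34 and GV oocytes shared a lower edge at 120010001 and an upper edge at 120590000. On the side of Tbx3, a long peak ended at 119570000 in c34 and at 119500000 in GV oocytes, having begun at 118780001 and 118790001. Thus within 500 kb of the pair the c34 and GV lists each had 4 H3K27me3 peaks in the same order. Of the GV H3K27me3 length there, 98.6% was also under c34 peaks, and of the c34 length 70.7% was under GV peaks. That overlap was not particular to c34, since E18.5 peaks held 100% of the same GV length. The window itself was covered at 100% in c7 and c13, 84.4% in c34 and 95.9% at E18.5. The stretch present in all 5 lists and nearest the pair was 119750001 to 119890000, 140 kb around Tbx5.

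**Figure D2:**
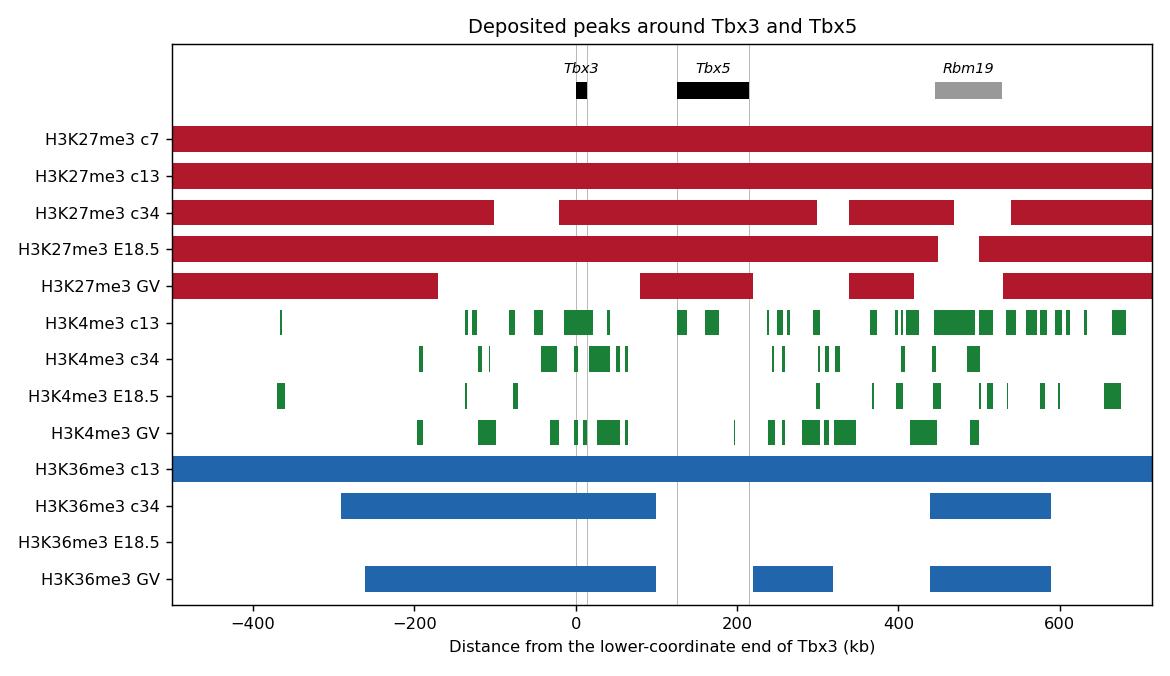
Deposited peaks of the 13 lists (rows; red H3K27me3, green H3K4me3, blue H3K36me3) from 500 kb below Tbx3 to 500 kb above Tbx5, by distance in kb from the lower end of Tbx3, with members in black and Rbm19 in grey. H3K27me3 spans the window in c7 and c13 and is in 4 peaks in c34 and GV oocytes, while H3K36me3 ends between the genes in c34 and GV oocytes.

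At Tbx2 and Tbx4 the H3K27me3 peaks were narrower in c7, c13, c34 and GV cells, and none lay over the pair at E18.5. In c7 the genes had separate peaks: 140 kb over Tbx2, from 85710001 to 85850000, and 150 kb over Tbx4, from 85890001 to 86040000. The stretch between the genes was covered at 18.1%. In c13 a single peak of 600 kb, 85450001 to 86050000, held both genes. In c34 a peak of 230 kb, 85670001 to 85900000, held Tbx2 and the lower part of Tbx4, 45.9% of its body. In GV oocytes a peak of 50 kb, 85800001 to 85850000, held Tbx2 alone and ended 36.4 kb before Tbx4. Peaks at least as wide made up 43.3% (Tbx2) and 40.9% (Tbx4) of the c7 list, 18.1% of the c13 list, 23.3% of the c34 list and 79.7% of the GV list.

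At E18.5 the nearest peak, 85920001 to 86050000, began 3.90 kb above Tbx4 and 78.1 kb above Tbx2. On the other side of Tbx2 the nearest lay 1890 kb away, so the adjacent gene Bcas3 was also free of the mark in that list. The covered share of the pair's interval was 52.1% (c7), 100% (c13), 80.7% (c34), 0% (E18.5) and 20.8% (GV). The peak edge at 85850000 above Tbx2 was common to c7 and GV oocytes, and the edge at 86050000 beyond Tbx4 to c13 and E18.5. Within 500 kb, 100% of the GV H3K27me3 length was also under c34 peaks, but 17.5% of the c34 length under GV peaks. No stretch of this window was under H3K27me3 in all 5 lists, and leaving out E18.5 the stretch in common was 85800001 to 85850000, 50 kb around Tbx2.

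**Figure D3:**
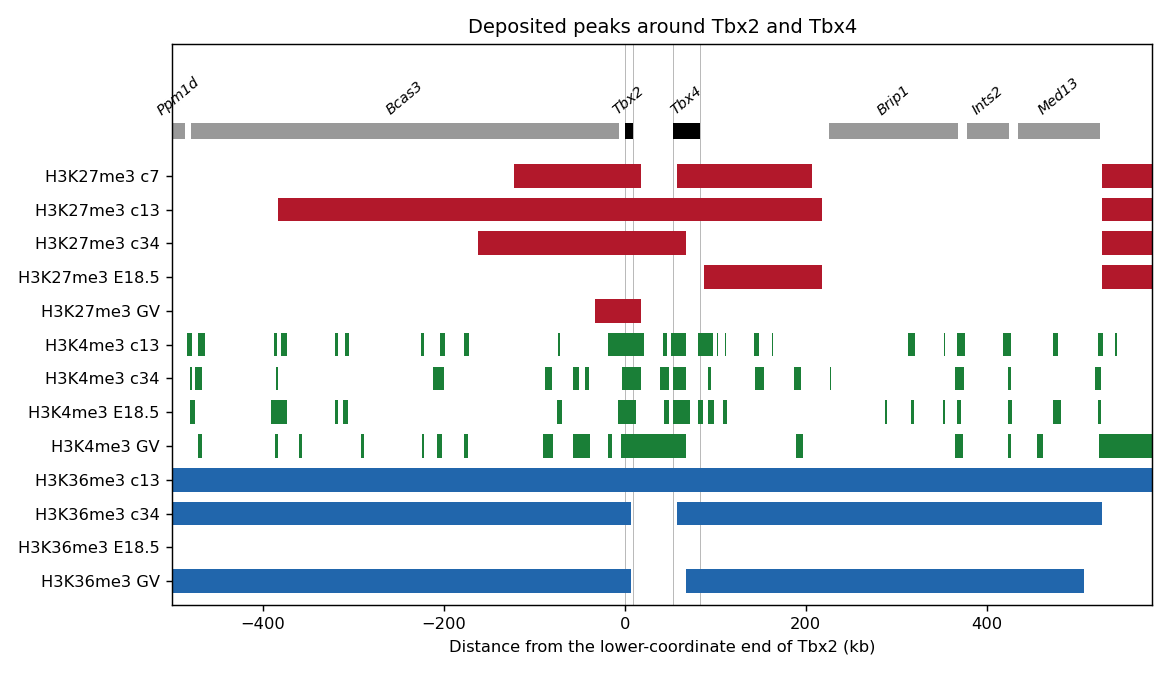
Deposited peaks of the 13 lists (rows; red H3K27me3, green H3K4me3, blue H3K36me3) from 500 kb below Tbx2 to 500 kb above Tbx4, by distance in kb from the lower end of Tbx2, with members in black and other protein-coding genes in grey. The H3K27me3 peak over Tbx2 is 140 kb wide (c7), 600 kb (c13), 230 kb (c34) and 50 kb (GV), and absent at E18.5.

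The pairs thus stood in opposite states in the fetal list: at E18.5 the interval was covered by H3K27me3 at 100% for Tbx3 and Tbx5 and at 0% for Tbx2 and Tbx4. The first share came from a single peak of 1970 kb. A peak began 3.90 kb above Tbx4, less than the grid step of 10 kb, and with 50 kb added on each side the second share was 25.1%. In GV oocytes each pair was split, Tbx5 and Tbx2 being covered in full and Tbx3 and Tbx4 at 0%. The covered gene is an activator in the first pair and a repressor in the second, and a link of the mark with these roles was not tested. Among protein-coding gene bodies, 34.7% (c7), 48.5% (c13), 30.7% (c34), 29.9% (E18.5) and 19.4% (GV) were covered in full.

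**Figure D4:**
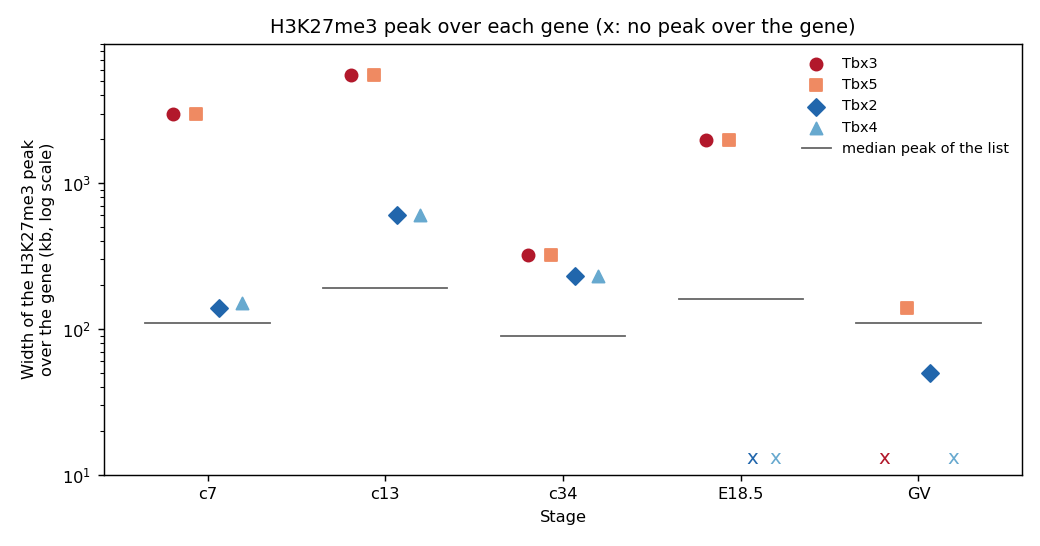
Width in kb (log axis) of the deposited H3K27me3 peak over each gene by stage, with symbols for the 4 genes, grey lines for the median peak width of each list, and x for no peak over the gene. Tbx3 and Tbx5 share peaks of 2980, 5510, 320 and 1970 kb in c7, c13, c34 and E18.5, and Tbx2 and Tbx4 lie between 140 and 600 kb in the cultured stages.

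H3K4me3 lay at Tbx2 and Tbx4 in all 4 of its lists, as at 54.9% of protein-coding genes, and was variable at Tbx3 and Tbx5. Marked members numbered 4 of 4 (c13), 3 (c34), 2 (E18.5) and 3 (GV), beside 71.7%, 66.7%, 61.3% and 74.8% of all protein-coding genes. The body of Tbx2, a short gene, was covered in full in each list, as were 15.8% (c13), 8.11% (c34), 5.31% (E18.5) and 14.6% (GV) of protein-coding gene bodies. The peak over it was 40 kb wide (c13), 20 kb (c34), 20 kb (E18.5) and 71 kb (GV), and 2.68%, 4.54%, 1.03% and 2.10% of the peaks of those lists were at least as wide. The stretch common to all 4 lists ran from 85830001 to 85845000, 15.0 kb over the whole of Tbx2.

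At Tbx4 the mark held 56.3% of the body (c13), 45.9% (c34), 73.1% (E18.5) and 45.9% (GV). The stretch common to the lists, 85886001 to 85900000 (14.0 kb), took in the lower end of the gene and the internal promoter printed above. In GV oocytes a single peak, 85829001 to 85900000, joined Tbx2, the whole stretch between the genes and the first part of Tbx4. That stretch was covered at 41.5% (c13), 43.7% (c34), 21.2% (E18.5) and 100% (GV). GV H3K4me3 peaks were wide throughout, with a median of 11 kb against 4.00 to 5.00 kb elsewhere.

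At Tbx3, H3K4me3 covered the body in full in c13, within a peak of 36 kb. In c34 it held 17.4% of the body and in GV oocytes 57.7%, each with a peak that began at 119668001, just before the gene. The stretch common to c13, c34 and GV oocytes was 119668001 to 119673000, 5.00 kb over the lower end of Tbx3. At E18.5 the nearest peak was 71.5 kb away. Tbx5 was marked in c13 only, with peaks of 12 kb and 17 kb over 32.1% of its body. In c34 the nearest peak lay 28.8 kb away and at E18.5 82.8 kb away, and in GV oocytes a peak of 1 kb inside the gene held 1.13% of it. The interval of Tbx3 and Tbx5 was covered at 24.9% (c13), 17.5% (c34), 0% (E18.5) and 19.3% (GV), beside 9.66%, 9.84%, 5.14% and 24.5% of the chromosomes.

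Outside the genes, c34 and GV oocytes had H3K4me3 between Tbx3 and Tbx5, at 31.3% and 28.9% of that stretch, against 9.65% in c13 and 0% at E18.5. The chromosome shares were 9.84% (c34), 24.5% (GV), 9.66% (c13) and 5.14% (E18.5), so the GV value was near that of its list. Both had a peak of 4 kb at 119732001 to 119736000, and peaks that ended at 119725000. Within 500 kb of the pair, GV peaks held 74.4% of the H3K4me3 length of c34, and c34 peaks held 43.9% of that of GV oocytes. An overlap of this size was not particular to the late lists, since c13 peaks held 70.1% of the E18.5 H3K4me3 length there.

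H3K36me3 lay over all 4 members in c13, over Tbx3, Tbx2 and Tbx4 in c34 and GV oocytes, and over none at E18.5. Bodies were called marked from 20% coverage, which 67.8% of protein-coding genes reached in c13, with 63.5% (c34), 22.1% (E18.5) and 62.2% (GV) in the other lists. The rule on gene ends called the same members, and its shares over all protein-coding genes were 68.2% (c13), 65.0% (c34), 22.9% (E18.5) and 63.8% (GV). The c13 calls came from peaks of 14650 kb on chromosome 5 and 6570 kb on chromosome 11, which held 224 and 86 protein-coding genes in full and say little about the members. At E18.5 the nearest peaks were 6680 kb from Tbx5 and 2570 kb from Tbx2.

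In c34 and GV oocytes the H3K36me3 peaks over the members shared several edges. Tbx3 was covered in full at both stages, as were 50.5% and 46.5% of protein-coding gene bodies, by peaks from 119380001 (390 kb) in c34 and from 119410001 (360 kb) in GV oocytes that shared the upper edge 119770000. That edge lies 26.5 kb before Tbx5, which was covered at 0% in both lists. Tbx2 was covered at 79.1% at both stages by a peak of the same coordinates, 85310001 to 85840000, that also held Ppm1d and Bcas3 and ended just inside the upper end of Tbx2. Tbx4 was covered at 87.8% in c34 and 54.1% in GV oocytes, by peaks that began at 85890001 and 85900001 inside the gene and ran on over Brip1 and Ints2. The stretch between Tbx2 and Tbx4 was thus at 0% H3K36me3 in both lists. In GV oocytes the wide peak of H3K4me3 lay over this stretch, and its upper edge at 85900000 met the lower edge of H3K36me3. At its lower end, from 85829001 to 85840000, the same peak overlapped H3K36me3. In c34 an H3K4me3 peak also ended at 85900000, but it overlapped the H3K36me3 peak that began at 85890001.

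The marks overlapped differently in the 2 late lists. In c34, H3K27me3 covered the whole interval of Tbx3 and Tbx5, 53.7% of it alone, 28.9% with H3K36me3 and 17.5% with both other marks. In GV oocytes, H3K27me3 alone held 53.2% of this interval, H3K27me3 with H3K36me3 9.32%, H3K36me3 alone 18.2% and H3K36me3 with H3K4me3 18.8%. The GV peaks of H3K27me3 and H3K36me3 overlapped by 20.0 kb between the genes, and a further H3K36me3 peak began at 119890001, where H3K27me3 ended. In the interval of Tbx2 and Tbx4, H3K27me3 with H3K4me3 and without H3K36me3 held 29.9% in c34 and 12% in GV oocytes. All 3 marks together held a further 20.8% in c34 and 8.85% in GV oocytes, and H3K4me3 alone 0% and 59.9%. At E18.5 no base pair of either interval carried more than 1 mark.

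By gene ends, H3K4me3 and H3K27me3 were both present at 4 members (c13), 3 (c34), 0 (E18.5) and 1 (GV), the last being Tbx2. Across protein-coding genes the shares were 49.97%, 26.5%, 19.8% and 17.1%. At E18.5 the pairs again divided: Tbx3 and Tbx5 had H3K27me3 without H3K4me3, as did 19.2% of genes, and Tbx2 and Tbx4 the reverse, as did 41.5%.

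Neighbouring protein-coding genes within 500 kb did not share all of these edges. On chromosome 5 the only one was Rbm19, a ribosome biogenesis gene 231 kb above Tbx5. It had H3K4me3 at its ends in all 4 lists and H3K36me3 over 100% of its body in c13, c34 and GV oocytes. H3K27me3 held 100% of it in c7 and c13, 28.5% (c34), 39.4% (E18.5) and 0% (GV). On chromosome 11, Bcas3 ends 6.56 kb before Tbx2. Its body was under H3K27me3 at 24.5% (c7), 79.5% (c13), 33.0% (c34), 0% (E18.5) and 5.51% (GV). Ppm1d, Brip1, a helicase gene of DNA repair, Ints2 and Med13 had 0% H3K27me3 in all 5 lists, so no domain of this pair reached Brip1. The lower edges of the H3K27me3 peaks over Tbx2 all lay within Bcas3.

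The other 13 T-box genes gave a family background. H3K27me3 marked 9 of 13 (c7), 12 (c13), 10 (c34), 9 (E18.5) and 5 (GV), beside the shares of all genes given above. Median body coverage of these genes was 100% in each list but GV, where it was 0%. For all protein-coding genes the median was 84.2% in c13 and 0% in the other lists. Eomes, Tbx10, Tbx18 and Tbx21 were marked in all 5 lists, as Tbx5 was. T, Tbr1, Tbx15 and Tbx20 were marked in all but GV oocytes, which is the pattern of Tbx3, and Tbx1 in all but E18.5, which is the pattern of Tbx2. Mga and Tbx6 were marked in c13 alone, and the X-linked Tbx22 in none. H3K4me3 marked 11 of the 13 (c13), 10 (c34), 9 (E18.5) and 12 (GV), beside 71.7%, 66.7%, 61.3% and 74.8% of all protein-coding genes.

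**Figure D5:**
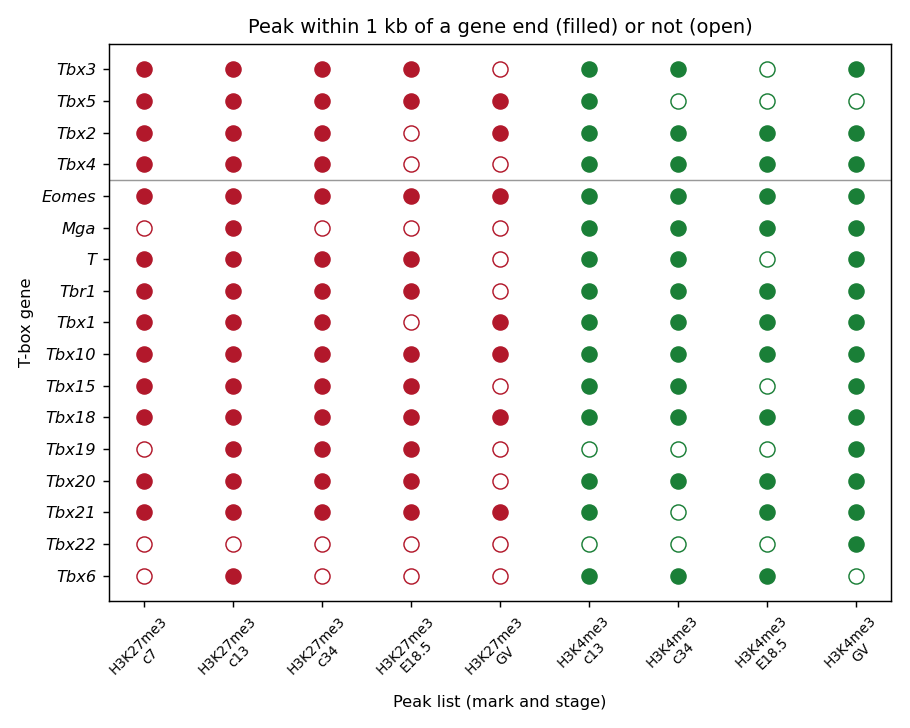
Presence (filled) or absence (open) of a peak within 1 kb of a gene end for the 4 members (above the line) and 13 other T-box genes, for H3K27me3 (red, 5 stages) and H3K4me3 (green, 4 stages). Tbx5 is filled in all 5 H3K27me3 lists and in the c13 H3K4me3 list only, calls that were partly known when the members were picked.

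Genes that act with the members in limb and heart formed a further list of 20. H3K27me3 marked 17 of 20 (c7), 18 (c13), 16 (c34), 15 (E18.5) and 12 (GV), beside 46.0%, 60.2%, 43.7%, 39.1% and 28.3% of all protein-coding genes. In all 5 lists it marked 12.1% of all genes and 10 of these 20, among the latter Nkx2-5 and Gata4, cardiac partners of Tbx5, Pitx1, which acts above Tbx4 in the hindlimb, and Bmp2 and Bmp4. Fgf10, a target of Tbx5 and Tbx4 in the limb bud, and Hand2 were marked in all but GV oocytes. The pacemaker channel gene Hcn4 was marked in all but E18.5. Gli3 was marked in none, and Nppa and Sall4 in c13 alone. Median body coverage was 100% in c7, c13, c34 and E18.5 and 68.0% in GV oocytes. H3K4me3 marked 18 of 20 (c13), 18 (c34), 15 (E18.5) and 17 (GV), beside 71.7%, 66.7%, 61.3% and 74.8% of all protein-coding genes.

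The likeness of genes was measured over the 13 lists as the mean absolute difference in coverage of the body with 50 kb on each side. Tbx2 and Tbx4 differed by 13.7 percentage points on average and Tbx3 and Tbx5 by 27.6. Between pairs, the differences were 28.9 points for Tbx3 and Tbx2, 31.4 for Tbx5 and Tbx4, 21.5 for Tbx3 and Tbx4 and 29.0 for Tbx5 and Tbx2. The windows of Tbx2 and Tbx4, 44.4 kb apart, overlap, so their smaller difference follows in part from their position. Those of Tbx3 and Tbx5, 112 kb apart, do not overlap, so the 2 within-pair values are not on equal terms. Among genes at least 1 Mb away, the most alike were Hsd17b2, Sgsm1 and Foxp4 for Tbx3 (3.90 to 5.21 points) and Pla2g5, CK137956 and Gm6569 for Tbx5 (2.98 to 3.99). They were Emilin1, Ost4 and Swsap1 for Tbx2 (6.18 to 6.96) and Laptm4a (5.35) and Lztr1 (6.23) for Tbx4.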

How the data were processed

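The deposited files were peak lists whose values are, per the file headers, a chromosome, a start and an end in base pairs, with no score, so no unit such as read counts was available. Starts were read as counted from 0 and ends as inclusive. The submitters' processing notes name, with no roles, MACS2 2.1.1, SICER 0.0.41, deepTools 3.5.0, bedtools 2.29.2, Picard 2.18.23, SAMtools 1.7, Bowtie2 2.3.4.1, cutadapt 1.9.1 and Trim Galore 0.4.1, with mm10 and GRCm38.p3 as builds. Which caller made each list, at what threshold, and whether libraries were pooled is not given in the sources used here. A longer list can thus come from deeper reads or a looser threshold.

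Gene positions came from the RefSeq table of GRCm38.p6, which gives no strand, so ends are called lower and upper. An overlap of 1 bp counted. Overlaps, shares and edges were computed in Python 3.11.15 with numpy 2.4.6 and pandas 2.3.3. The gene calls were checked on a simulated list with peaks placed over gene ends. All 200 of 200 genes given a peak were recovered among 21631, as the rule requires, so this checks the code alone. A direct count for 3200 genes gave 0 disagreements. Named genes were the members, protein-coding neighbours within 500 kb, the other T-box genes, the limb and heart list and the 3 genes most alike to each member, of which 1 is not reported here. Alternatives changed the window at gene ends, the ends required, the body threshold, the peak widths kept, the joining of peaks and the interval. Members and lists were chosen with earlier results of these data known. Input libraries and peaks on Y were not used here.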

Additional observations from a re-analysis of the deposited data

Results flagged for a closer look

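In both pairs the step from c13 to c34 in culture and the step from E18.5 to GV oocytes in animals went in opposite directions for some marks. Each step compares 2 single lists, and the difference was not tested. A c13 share of 100% could not rise and an E18.5 share of 0% could not fall. Such starting values fixed the signs for H3K36me3 in both pairs and for H3K27me3 at Tbx2 and Tbx4. For H3K4me3 at Tbx3 and Tbx5 the E18.5 share was also 0%. At Tbx2 and Tbx4 the H3K4me3 shares were close, 53.3% in c13 and 50.8% in c34. For Tbx3 and Tbx5, the H3K4me3 share of the interval differed by -7.40 percentage points from c13 to c34 and by 19.3 from E18.5 to GV, and the H3K36me3 share by -53.7 and 46.3. For Tbx2 and Tbx4, the H3K27me3 share differed by -19.3 and 20.8 points, the H3K4me3 share by -2.50 and 32.2, and the H3K36me3 share by -59.9 and 28.1. The c13 lists of H3K36me3 covered each interval with a peak of several Mb, and the E18.5 list had no H3K36me3 peak within 500 kb of either pair. Over the assembled chromosomes the H3K36me3 share also went in opposite directions, from 42.6% (c13) to 35.3% (c34) and from 24.1% (E18.5) to 37.9% (GV). The H3K4me3 share there was 9.66% (c13), 9.84% (c34), 5.14% (E18.5) and 24.5% (GV). That of H3K27me3 was lower at the later stage of each step, 35.2% (c34) and 27.4% (GV). The H3K36me3 directions and the higher H3K4me3 share in GV than E18.5 were thus not particular to the pairs.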

How the results depend on the processing

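Of 186 recomputed values, 163 stayed close to the value reported (lengths and shares within 1 grid step, counts of members within 1.5 times) and 23 did not. The 163 include 40 widths of H3K27me3 domains over the members, which were the same with peaks joined across 10 kb or 30 kb. No gap of 30 kb or less lay beside these domains, so joining could not change them. Without peaks of 1 Mb or more, an alternative chosen after seeing the data, H3K27me3 marked 2 members in c7, 2 in c13 and 0 at E18.5, and its share of the interval of Tbx3 and Tbx5 was 0% in those lists, while c13 H3K36me3 marked 0 members by ends and 0 by bodies. With peaks from the median width of their list, GV H3K27me3 marked 1 member and held 0% of the interval of Tbx2 and Tbx4, and H3K4me3 within 10 kb was 0 kb at Tbx3 in GV oocytes (11 kb with all peaks) and 19.6 kb at Tbx4 in c34 (20.7 kb). Within that tolerance 7 counts still changed: with a window of 5 kb, E18.5 H3K27me3 marked 3 members (2 in the report) and GV H3K36me3 4 (3); with both ends required, c7 H3K27me3, c34 H3K27me3 and c13 H3K4me3 marked 3 (4) and GV H3K4me3 2 (3); and with peaks from the median width GV H3K4me3 marked 2 (3). Requiring both gene ends left 1 member marked for c34 H3K4me3, c34 H3K36me3 and GV H3K36me3. With 50 kb added on each side, H3K27me3 held 90.6% (c34) and 44.5% (GV) around Tbx3 and Tbx5, and 78.2% (c7), 64.0% (c34) and 25.1% (E18.5) around Tbx2 and Tbx4. Between the genes alone it held 41.6% (GV) for Tbx3 and Tbx5, and 18.1% (c7) and 100% (c34) for Tbx2 and Tbx4. The causes of these shifts were not tested beyond what each alternative removes or adds. No paired analysis was possible because the deposited lists carry no replicates, and how far depth limits them is unknown.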

Other observations

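Non-coding genes shared the H3K36me3 peak over Tbx3, which were named after their values were seen. In c34 and in GV oocytes this peak held 6 lncRNA genes in full, the same at both stages: Gm31314, AW549542, Tbx3os1, Gm16063, Gm16064 and Tbx3os2. Tbx3 was the only protein-coding gene it touched. In c34 the H3K27me3 peak over Tbx3 and Tbx5 held 5 lncRNA genes in full, among them Tbx3os2, and in GV oocytes the peak over Tbx5 held 2, Gm42017 and Gm5563.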
